A study of Bos taurus with 8 samples.

Results

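Genes of the germ line and of meiosis were followed across bovine eSLCs, stem-like cells derived from embryos, and somatic cells (SCs). The 9 genes were SYCP3, TEX12, STAG3, HORMAD1, DMC1, DAZL, DDX4, MAEL and PIWIL2. They were chosen by name for what they do, with earlier results of these data known. A probe belonged to a gene when the accession of its target sequence led to that gene in the RefSeq table, and 16 of the 26743 probes that led to a gene belonged to 8 of the 9 genes, among 12603 genes in all. PIWIL2, a PIWI protein of the piRNA pathway, had no such probe and was not analysed here. SYCP3, TEX12, DMC1 and DDX4 had 1 probe each, HORMAD1, DAZL and MAEL had 2 each, and STAG3 had 6.

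The study asked how eSLCs from embryos of different origin differ from SCs and from each other. It used 8 one-colour arrays, all with RNA of HanWoo, the native cattle of Korea. The eSLC lines were colonies grown out of blastocysts on murine STO feeder cells in 3i medium, a serum-free medium with the MEK inhibitor PD184352, the FGF receptor inhibitor SU5402 and the GSK3 inhibitor CHIR99021. I2 (passage 35) and I9 (passage 30) came from in vitro produced (IVP) embryos, made with sperm and oocyte. N2 (passage 36) and N7 (passage 30) came from somatic cell nuclear transfer (NT) embryos, in which an ear skin cell gave the nucleus. P1 (passage 31) and P4 (passage 36) came from parthenogenetic (PA) embryos, made from an activated oocyte with no sperm. The SCs were taken at passage 5 (SC P5) and passage 10 (SC P10) in DMEM with serum, without the inhibitors and without a stated feeder. Each eSLC array stood for 1 line at 1 passage, and no label says that the SC passages came from separate cultures. The p-values therefore measure the spread between arrays of the same origin and between the SC arrays, part of which may be technical.

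Meiosis is the division by which germ cells halve their chromosomes. Its machinery includes the synaptonemal complex, which joins paired homologous chromosomes along a protein axis, a meiotic form of cohesin, which holds sister chromatids together, and recombinases that exchange strands between homologues. Germ cells also hold RNA-binding proteins that steer translation, and nuage, a perinuclear material in which piRNAs against transposable elements are made. Most of these genes are silent in somatic tissues, where DNA methylation and Polycomb-type complexes keep them off, and several are known to be transcribed in tumours without meiosis taking place.

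Values are normalized signals: the background-subtracted signal of a probe on a scale on which the 75th percentile of every array is 1000. A dim probe can fall below 0. A probe counted as detected on an array where the scanner software marked it well above background, and signals under 13.3 were raised to that floor for differences and tests. The probe with the highest mean stood for a gene. A gene was called when limma gave an adjusted p under 0.05 over 10957 genes tested and a difference of at least 2-fold. Between 71.2% and 76.7% of the spots of an array were well above background. Arrays of eSLC lines correlated with each other at r of 0.947 to 0.994 over all genes and with SC arrays at 0.763 to 0.798. I9 and N2, of different origin and on different slides, were the closest pair of eSLC arrays, closer than any pair of the same origin. The slide of I2, I9, N7 and SC P5 was slide 1 and that of the others slide 2. Of 11 trophectoderm markers with a probe, 9 were higher in eSLCs, with summed signals of 383800 to 1148000 on eSLC arrays and 14260 to 15290 on SC arrays. Of 10 fibroblast markers, 9 were lower. The primordial germ cell markers DPPA3 (15.8, near the floor) and KIT (724) were detected on the N7 array alone. SOX17 and DND1 were detected on all 8 arrays, and PRDM1 on those of N7, SC P5 and SC P10. Of 6 oocyte markers none was called. N7 stood apart in a further list: the summed signal of 5 hypoblast markers was 127200 in N7, against 3486 to 8854 in the other eSLC lines and 7689 to 9170 in SCs. APOA1 alone made up 112600 of that sum, and 2 of the 5 markers, AFP and SOX17, were not highest in N7.

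SYCP3 builds the axial and lateral elements of the synaptonemal complex. Its signal was 573 in I2, 443 in I9, 475 in N2, 1497 in N7, 401 in P1 and 299.9 in P4, and 37.1 in SC P5 and 40.05 in SC P10. It was detected on all 8 arrays, and the lowest eSLC line lay far above both SC arrays, which differed by 1.08-fold. SYCP3 was higher in eSLCs than in SCs by 3.78 on the log2 scale (SE 0.43, limma adjusted p = 0.0011), or 13.7-fold. Within slide 1 the 3 eSLC arrays exceeded the SC array by 4.29 (log2), and within slide 2 by 3.27. By origin, the log2 difference from SCs was 3.71 for IVP-eSLCs (adjusted p = 0.0035), 4.45 for NT-eSLCs (adjusted p = 0.0019) and 3.17 for PA-eSLCs (adjusted p = 0.0058), all against the same SC arrays. With SC P5 or SC P10 left out, the PA-eSLC difference was not called (adjusted p = 0.060 and 0.052).

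TEX12 is a component of the central element of the same complex. Its signal was 183 in I2, 70.1 in I9, 49.0 in N2, 1893 in N7, 67.3 in P1 and 151 in P4, and 13.9 in SC P5 and 11.5 in SC P10. It was detected on all 8 arrays, at about the floor in SCs, and every eSLC line lay above both SC arrays. The N7 line alone was 10.4-fold above the next, and the 6 lines spanned 38.6-fold. The mean log2 difference between eSLCs and SCs was 3.48 (SE 1.32) and TEX12 was not called (adjusted p = 0.075). Without N7 the log2 difference was 2.60 and was called (adjusted p = 0.015), and without N2 it was 4.36 and was called (adjusted p = 0.0056). Leaving out any other single array gave no call for TEX12. The fit takes its spread within each origin, and the NT lines were furthest apart (SD 3.73, against 0.98 for IVP and 0.82 for PA, log2). Leaving out either NT line therefore takes that pair out of the spread. Within slides the log2 differences were 4.38 and 2.58.

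STAG3 is the meiosis-specific STAG subunit of cohesin. By its brightest probe, A_73_116226, the signal was 104 in I2, 206 in I9, 336 in N2, 125 in N7, 176 in P1 and 172 in P4, and 109 in SC P5 and 116 in SC P10. I2 lay below both SC arrays, so the groups overlapped, and the log2 difference was 0.63 (SE 0.43, adjusted p = 0.27). A further probe, A_73_107783, gave 132.5 in I2, 208 in I9, 165 in N2, 119.7 in N7, 93.2 in P1 and 142 in P4, and 38.0 and 48.3 in SC P5 and SC P10. By that probe the groups did not overlap, and when each probe was tested on its own it was called, with a log2 difference of 1.70 (SE 0.28, adjusted p = 0.0056), as 17.0% of all probes were. The other 4 probes were detected on 1 to 3 of the 8 arrays. The probes of STAG3 therefore differ on whether its RNA was higher in eSLCs.

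**Figure D1:**
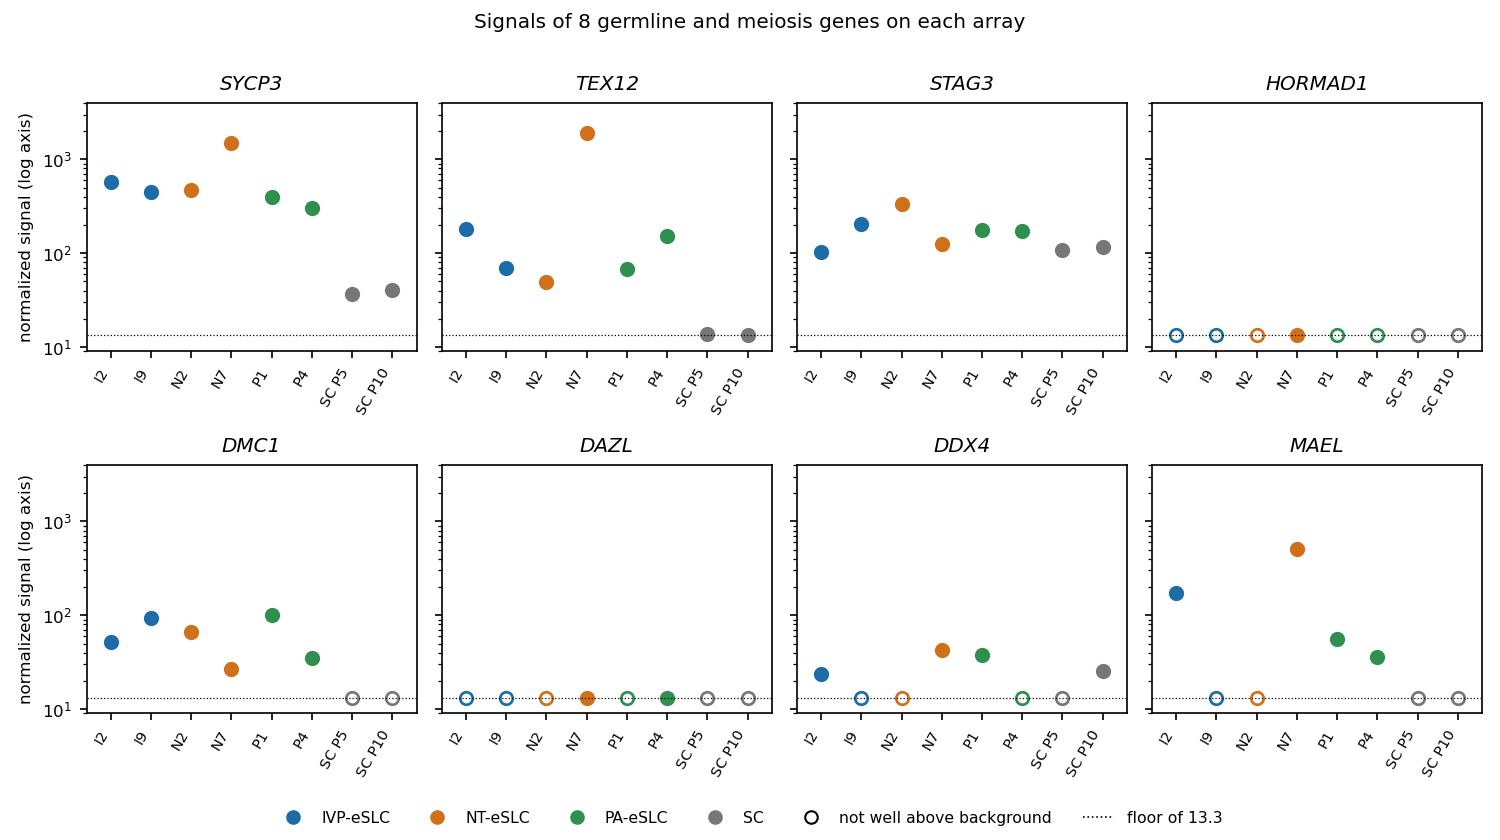
Normalized signal (log axis, 75th percentile of each array at 1000) of the probe that stands for each of 8 germline and meiosis genes, 1 point per array, coloured by origin. Open points were not well above background, values under 13.3 are drawn at that floor, and SYCP3, TEX12 and DMC1 have all 6 eSLC lines above both SC arrays, with N7 highest for SYCP3, TEX12 and MAEL.

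**Figure D2:**
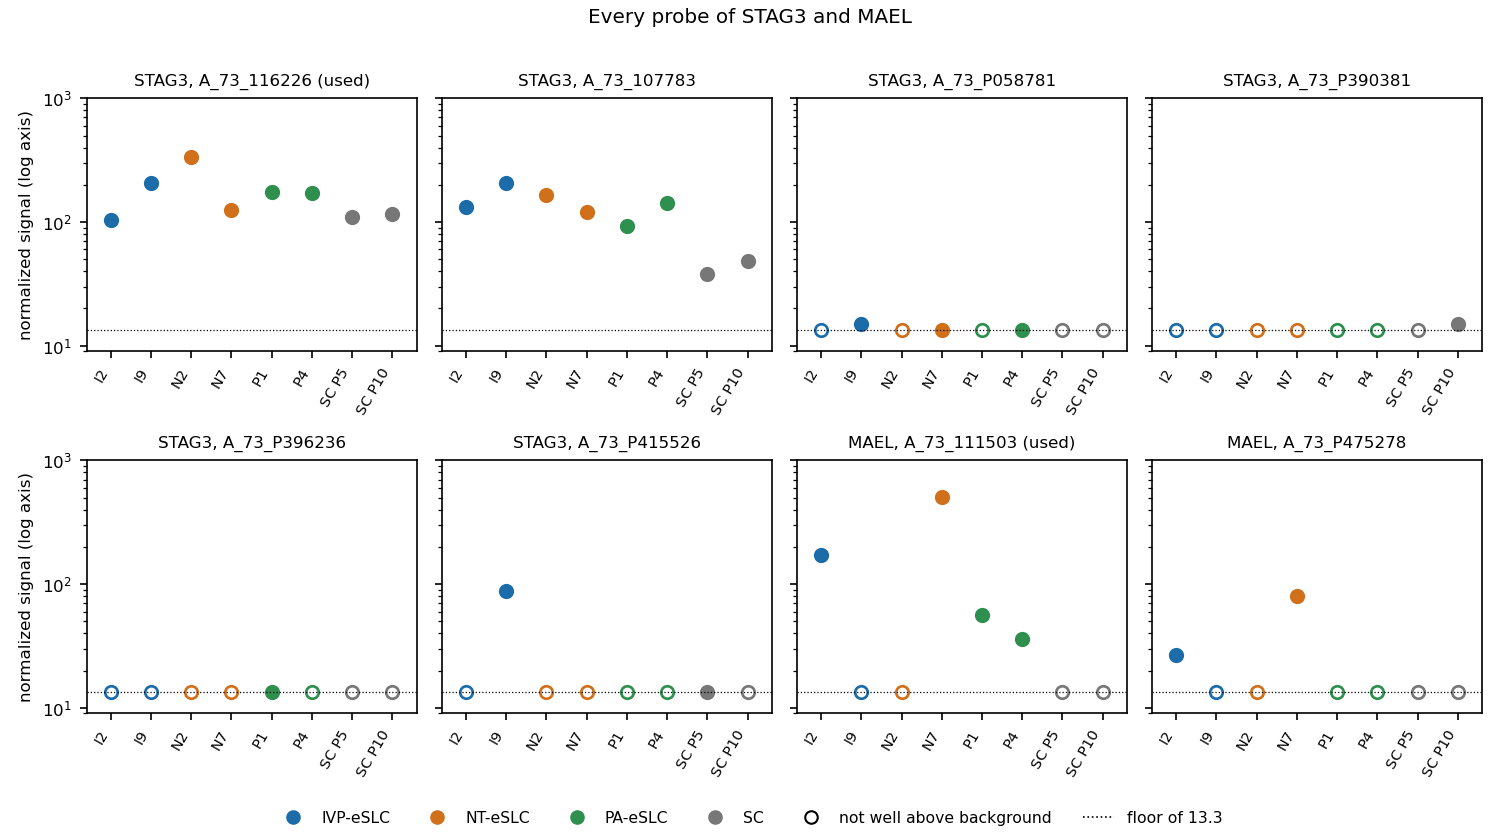
Normalized signal (log axis) of all 6 probes of STAG3 and both probes of MAEL on the 8 arrays, with points as before. The probe used for STAG3 overlaps between eSLCs and SCs, the second does not, and both MAEL probes are highest in N7 and next in I2.

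HORMAD1 marks chromosome axes that have not yet paired. By either probe it was under 8 on every array and was detected on the N7 array alone, by 1 probe at 7.89. It was not tested.

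DMC1 is the recombinase of meiosis, which carries out strand exchange between homologues. Its signal was 51.9 in I2, 92.7 in I9, 66.9 in N2, 26.9 in N7, 99.8 in P1 and 35.3 in P4, and 0.542 in SC P5 and 0.844 in SC P10. It was detected in all 6 eSLC lines and in neither SC array, and the groups did not overlap. DMC1 was higher in eSLCs by 2.07 on the log2 scale with SCs at the floor (SE 0.53, adjusted p = 0.022). It was at least 6.73-fold higher, setting each SC array at its lowest signal that was well above background. Within slides the log2 differences were 1.93 and 2.22. The call was lost without I9 (log2 difference 1.93). It was also lost without SC P5 or without SC P10, though the log2 difference stayed at 2.07, since both SC arrays lay at the floor. Those fits had a single SC array left. By origin, DMC1 in IVP-eSLCs exceeded SCs at least 8.35-fold (adjusted p = 0.032) and in PA-eSLCs at least 7.14-fold (adjusted p = 0.041), and in NT-eSLCs the log2 difference was 1.68 (adjusted p = 0.095). The IVP-eSLC call was lost under 10 of 22 alternatives, among them without I2, I9, SC P5 or SC P10 (adjusted p = 0.081 to 0.157). Both PA-eSLC arrays lay on slide 2, and the PA-eSLC call was lost under 14 of 22 alternatives, with the slide as a block (log2 difference 1.83, adjusted p = 0.114) and without I2, I9, P1, SC P5 or SC P10 (adjusted p = 0.063 to 0.184) among them.

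DAZL and DDX4 are RNA-binding proteins that mark germ cells, DDX4 (VASA) being an RNA helicase of nuage. By its brighter probe DAZL was at most 12.2, detected in N7 at 8.48 and in P4, and by the other probe it was detected on none of the 8 arrays. DDX4 was 23.7 in I2, 42.2 in N7 and 38.0 in P1, which were detected, and 1.13 in I9, 0.881 in N2 and 7.28 in P4, which were not. In SCs it was -2.195 at passage 5 and 25.7 at passage 10, the latter detected. The detected eSLC lines and SC P10 overlapped, no condition had DDX4 on both of its arrays, and neither gene was tested.

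MAEL is a nuage protein of the piRNA pathway that takes part in silencing transposable elements. Its signal was 172 in I2, 506 in N7, 56.5 in P1 and 35.9 in P4, where it was detected. It was 3.81 in I9, 5.41 in N2, -0.932 in SC P5 and 2.465 in SC P10, where it was not. I9 and N2 were thus as low as SCs while the partner line of each origin was the highest or next to it. The weaker probe gave 79.5 in N7 and 26.7 in I2 and was detected on no other array. The log2 difference between eSLCs and SCs was 2.08 (SE 1.53) and was not called (adjusted p = 0.30), nor was it called without N7 (log2 difference 1.20, adjusted p = 0.38).

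Of the 5 genes that could be tested, SYCP3 and DMC1 were called higher between eSLCs and SCs and none lower, where 19.7% of all genes tested were called higher and 15.7% lower. DMC1 and MAEL passed the filter on dim probes only through eSLC arrays, so this count is no support for the group. All 6 eSLC lines lay above both SC arrays for SYCP3, TEX12 and DMC1, and so they did for 34.0% of all genes tested. SYCP3 and DMC1 were called in IVP-eSLCs against SCs, where 17.7% of genes were called higher, and in PA-eSLCs against SCs, where 20.4% were. SYCP3 alone was called in NT-eSLCs against SCs, where 15.8% were. The study selected genes by present and absent classes and a 2-fold difference. With presence taken here as detection on every array of a condition, and with no test, SYCP3, TEX12, DMC1 and MAEL were higher in eSLCs, 4 of the 5, where 22.7% of genes were. MAEL met it through the PA-eSLC arrays, since it was not detected in I9 or N2. The selection took 3 of the 4 genes that qualified in IVP-eSLCs (23.2% of genes that qualified) and in NT-eSLCs (22.0%) and 4 of 5 in PA-eSLCs (25.8%), each against SCs, and TEX12 alone of 4 as higher in NT- than in IVP-eSLCs (2.36%). For TEX12 the NT lines stood at opposite ends, with N7 at 1893 the highest and N2 at 49.0 the lowest of the 6 eSLC lines. As RNA was taken from whole cultures, a few cells with much of an RNA and many cells with little cannot be told apart.

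The embryo origin gave no call by limma. The study, by its 2-fold selection, listed SYCP3 among 5 chromatin remodeling genes that differed between NT- and IVP-eSLCs. It reported that real-time PCR bore out their patterns, and its text gives no direction for SYCP3. Between NT- and IVP-eSLCs the log2 differences were 0.74 for SYCP3 (SE 0.53), 1.43 for TEX12 (SE 1.62), 0.49 for STAG3 (SE 0.53), -0.71 for DMC1 (SE 0.65) and 0.78 for MAEL (SE 1.88). Between PA- and IVP-eSLCs they were -0.54 for SYCP3, -0.17 for TEX12, 0.25 for STAG3, -0.23 for DMC1 and -0.09 for MAEL, with the same SEs. In neither comparison was any of the 5 genes called by limma, nor any of the 10957 genes (0.0%). The direction for SYCP3 depended on the processing: by the series matrix NT-eSLCs exceeded SCs less than IVP-eSLCs did, and PA-eSLCs more. At an unadjusted p under 0.05 there were 306 genes between NT- and IVP-eSLCs and 568 between PA- and IVP-eSLCs, with 0 of the 5 among them. Passage, compared within origin, gave 0 calls too (0.0%), with 156 genes and 0 of the 5 at an unadjusted p under 0.05. The log2 differences of the lines at passage 35 or 36 from those at 30 or 31 lay between -0.91 (TEX12, SE 1.39) and 0.14 (STAG3, SE 0.47).

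The lines differed in other ways than by origin. In order of signal the lines were N7, I2, N2, I9, P1 and P4 for SYCP3, N7, I2, P4, I9, P1 and N2 for TEX12, and N7, I2, P1 and P4 for MAEL, with I9 and N2 not detected. DMC1 ran P1, I9, N2, I2, P4 and N7. Thus N7 was highest for SYCP3, TEX12 and MAEL and lowest for DMC1. With 1 array per line there is no replicate error for such an order, and neighbours as close as I9 and N2 for SYCP3 (443 and 475) or P1 and I9 for DMC1 (99.8 and 92.7) have none by which to separate them. The range over the 6 lines was 5.27 (log2) for TEX12, and 0.96% of the 10416 genes detected in at least 4 eSLC lines had a larger one. For MAEL it was 5.25, with I9 and N2 at the floor, and 0.989% of those genes had a larger range. It was 2.32 for SYCP3, 1.89 for DMC1 and 1.70 for STAG3, and the median gene had 0.95.

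N7 exceeded every other line by at least 2-fold for SYCP3, TEX12 and MAEL, 3 of the 5 genes, and it did so for 2.02% of the 10416 genes. In the wider lists described below it did so for 3 of 58 genes (5.17%), ASZ1, GTSF1 and POU5F1. N7 was also the line with high signals of hypoblast markers: HNF4A, a transcription factor of endoderm, was at 9022 in N7 and at most 23.4 in the other lines, GATA4 at 2918 against at most 179.8, and APOA1, an apolipoprotein, at 112600 against at most 6823. The other 2 hypoblast markers with a probe did not follow: AFP was at 15.9 in N7 and 20.1 to 26.8 in the other lines, and SOX17 at 2664 in N7 and 1908 to 2946 in the others. The pluripotency factor POU5F1 was at 898 in N7 and at most 101 elsewhere, the germ cell receptor KIT at 724 and at most 7.14, PRDM1 at 337 and at most 8.40 in the other eSLC lines, and PRDM14 at 21.6 in N7 and not detected in the others. KIT, PRDM1 and PRDM14 are germ cell regulators, and PRDM1 was as high in SCs, at 415 and 302. Of the other primordial germ cell markers with a probe, DPPA3 was detected in N7 alone, SOX17 was no higher there than in I2 or N2, and DND1 was at 48.1 in N7 and 52.4 to 97.4 in the other lines. The part of any cells behind these markers in the signals of SYCP3, TEX12 and MAEL was not tested.

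I9 and N2 were the lowest pair for MAEL, at least 2-fold below the other 4 lines, and this held for 1.17% of the 10416 genes. Of 58 genes in the wider lists described next that were detected in at least 4 eSLC lines, 5 had the same pattern: ASZ1, GTSF1, ZP3, DNMT3A and DNMT3B. ASZ1 and GTSF1 act with MAEL in the piRNA pathway, ASZ1 as a nuage protein and GTSF1 as a cofactor of PIWI proteins, and were picked out here after their values were seen. ASZ1 was at 821 in I2, 2033 in N7, 374 in P1 and 481 in P4, but at 55.6 in I9 and 54.6 in N2, and at 16.3 and 12.6 in SCs. GTSF1 was at 417 in I2, 4594 in N7, 1424 in P1 and 1529 in P4, but at 20.9 in N2, and it was not detected in I9 or in SCs. Neither was called between eSLCs and SCs, with log2 differences of 4.41 (SE 1.55, adjusted p = 0.060) and 4.61 (SE 2.19, adjusted p = 0.13). Without N2 both were called, ASZ1 at 5.27 (adjusted p = 0.024) and GTSF1 at 5.91 (adjusted p = 0.034), and without I9 ASZ1 was called at 5.05 (adjusted p = 0.049). Leaving out any other single array gave no call for ASZ1, and leaving out any array but N2 gave none for GTSF1. Leaving out N2 or I9 also takes the NT or IVP pair out of the spread that the fit uses. RBM46, an RNA-binding protein of germ cells, was detected in I2, N7, P1 and P4 at 11.4 to 103 and not in I9, N2 or SCs.

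**Figure D3:**
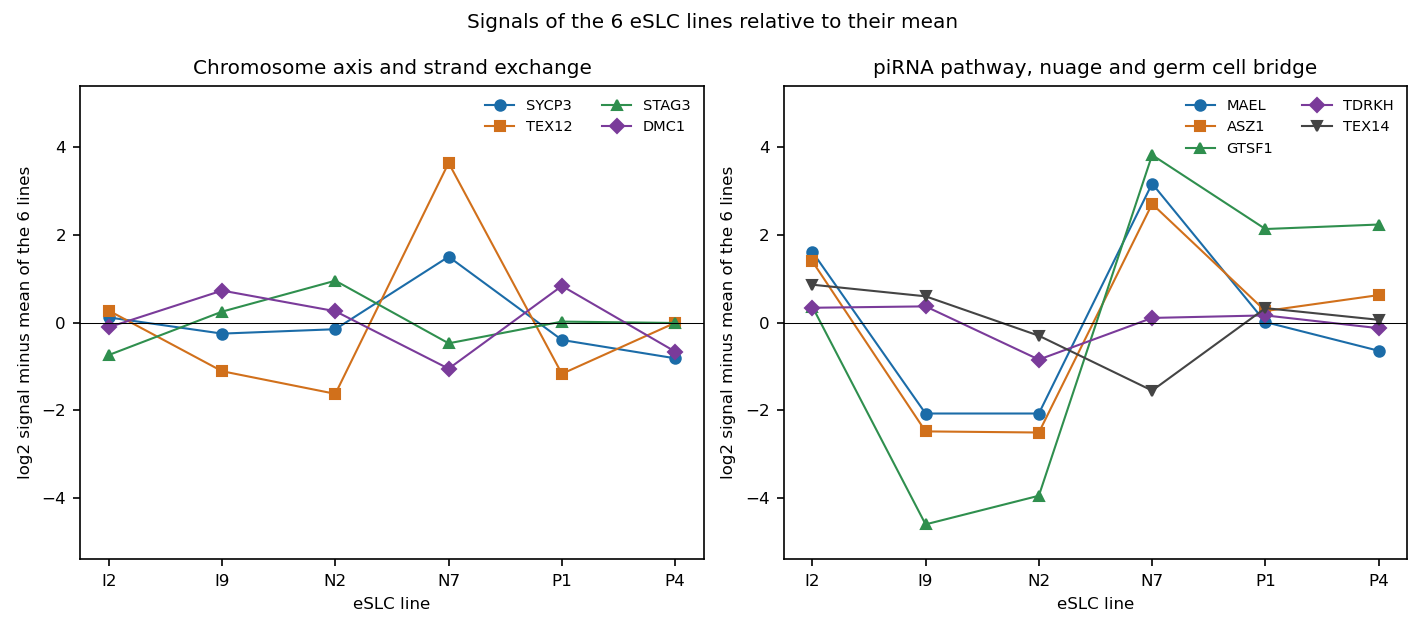
log2 signal (floor 13.3) of 4 chromosome axis and recombination genes (left) and 5 genes of the piRNA pathway, nuage and germ cell bridges (right) in the 6 eSLC lines, each minus its mean over the 6 lines, 1 array per line. TEX12 peaks in N7, DMC1 and TEX14 are lowest there, and MAEL, ASZ1 and GTSF1 are low in I9 and N2 together, while TDRKH stays within about 1 log2 unit of its mean.

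By the pattern over the 6 lines, genes near TEX12 were AKR1C4 (root mean square difference of centred log2 signals 0.28), LOC538060 (0.33) and AKR1C3 (0.41), among 1508 genes with a range of at least 2. AKR1C4 and AKR1C3 are aldo-keto reductases of a multigene family whose probes can share targets. AKR1C4 was at 965 in N7 and at most 71.5 in the other lines. Genes near MAEL were NDN (0.38), an imprinted gene expressed from the paternal allele, NAA11 (0.57), an N-terminal acetyltransferase subunit known from testis, and ASZ1 (0.62). NAA11 was at 445 in N7, 178 in I2, 61.8 in P1 and 102 in P4, and at 5.48 in I9, 6.25 in N2 and 7.40 and 7.05 in SCs. NDN ran the same way among eSLC lines, from 48.0 in I9 to 1463 in N7, but was at 523 and 480 in SCs. Genes near SYCP3 were CAMKV (0.15), ANKRD6 (0.28) and DPYSL2 (0.28), of which the latter 2 were higher in SCs, at 1239 and 1253 for ANKRD6 and 4168 and 4248 for DPYSL2. These are likenesses over 6 arrays and carry no test.

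The same pathways hold 140 further genes in 12 lists, of which 80 had a probe and 62 were tested. Between eSLCs and SCs 15 of the 62 were higher (24.2%, against 19.7% of all genes tested) and 3 lower (4.84%, against 15.7%), with a median log2 difference of 0.57 against 0.23 over all genes tested. The germline lists proper, without mitotic cohesin, repair genes used by all cells and repressors, had 39 genes tested, of which 3 were higher (7.69%) and 3 lower (7.69%), with a median of 0.29. SYCP3 was called higher, while 33 of these 39 were not called, as were 7083 of the 10957 genes tested. TDRKH and DNMT3B, called higher, passed the filter on dim probes only through eSLC arrays. PRDM1, called lower, passed it only through SC arrays. These counts are therefore no support for the lists.

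In the synaptonemal complex list 2 of 8 genes were tested and none called. SYCE1, a central element protein like TEX12, had a log2 difference of 0.11 (SE 0.53) whose sign turned under quantile normalization (-0.075). SYCE3 was detected in all 6 eSLC lines at 9.74 to 21.8 and in neither SC array. In meiotic cohesin 2 of 5 were tested: REC8, the meiotic kleisin, had a log2 difference of 0.76 (adjusted p = 0.15), and SGO2, a protector of centromeric cohesion, 0.05, whose sign turned without SC P5 (-0.18), without N7 (-0.037) or scaled to the median (-0.0022). Of mitotic cohesin genes 1 of 4 was called: SGO1 rose by 1.62 (SE 0.35, adjusted p = 0.012), a call lost without SC P5 (1.15, adjusted p = 0.11), while SMC3, SMC1A and RAD21 had 0.41 to 0.56.

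Of 22 genes for meiotic breaks and recombination 5 were tested, 0 were called higher and HSF2BP, a meiotic recombination factor, was lower by 2.30 (SE 0.44, adjusted p = 0.0080). That call was lost without SC P5 (adjusted p = 0.083) or SC P10 (adjusted p = 0.085). SPO11, which cuts the DNA to start recombination, was not detected on any array, and nor were HORMAD2, MSH4 or HFM1. PSMC3IP and MND1, which form the accessory complex of DMC1, were detected on all 8 arrays, at 327 to 578 in eSLCs and 141.8 to 305 in SCs for PSMC3IP and at 1498 to 2561 and 1249 to 2097 for MND1, and neither was called (adjusted p = 0.069 and 0.39). SPATA22 was detected in N7 alone, at 124. Among the repair genes that mitotic cells use too, RAD54B rose by 1.75 (adjusted p = 0.0074), RAD54L by 1.42 (adjusted p = 0.028) and XRCC3 by 1.38 (adjusted p = 0.0096). Without SC P5 none of these 3 was called (log2 differences 1.36, 0.95 and 1.27, adjusted p = 0.083, 0.22 and 0.097), nor was XRCC3 without SC P10 (adjusted p = 0.065). RAD54L lost its call under 10 of 23 alternatives, which included leaving out I2, I9, P1, P4 or SC P10 (adjusted p = 0.057 to 0.077).

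In the piRNA and nuage list 1 of 5 genes tested was called. TDRKH, a Tudor protein that binds PIWI proteins at mitochondria, was at 53.4 to 123.9 in eSLC lines and was not detected in SCs. It was at least 11.5-fold higher (limma adjusted p = 0.00052, with both SC arrays at the floor). TDRKH passed the filter only through eSLC arrays. TDRD6 was detected in 5 eSLC lines and not in N7 or SCs, and was not called (adjusted p = 0.094). TDRD7 was at 159 to 327 in eSLCs and 387 to 401 in SCs, a difference under 2-fold. Among germ cell RNA-binding and translation genes 1 of 6 was called: TEX14, needed for the bridges between germ cells, rose by 2.77 (SE 0.35, adjusted p = 0.0016), from 14.1 and 18.4 in SCs to between 37.5 in N7 and 200.1 in I2. Of the specification genes of primordial germ cells, TFAP2C rose by 2.71 (adjusted p = 0.00029) and PRDM1 was lower by 3.96 (adjusted p = 0.030), out of 6 tested. N7 overlapped the SC arrays for PRDM1, and its call was lost under 11 of 22 alternatives, among them without either SC array and without any IVP- or PA-eSLC array, each left out singly (adjusted p = 0.068 to 0.203). TFAP2C is a trophectoderm gene as well and stands in that marker list too. YTHDC2, a helicase that drives entry into meiosis, was lower by 1.17 (adjusted p = 0.0032), and MYBL1 was not called.

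Of 13 oocyte genes 5 were tested and 0 were called, with log2 differences of 1.18 for ZP3, 0.29 for OOEP, 0.29 for H1-8, 0.00 for GDF9 and -0.12 for NLRP5. OOEP had -0.14 by the series matrix and NLRP5 0.018 without SC P5. Of 12 testis and sperm genes 6 were tested and 0 were called. TNP1, a transition protein of spermatids, ranged from 13.6 in I9 to 626 in P1, a further gene that differed widely between lines. LDHC, ACR and ODF1, detected on all 8 arrays, had log2 differences of 0.46, -0.38 and -0.25.

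Genes reported as repressors of germline genes were all on the array, and 6 of 14 were called higher (42.9%, against 19.7% of all genes tested) and 0 lower (against 15.7%). DNMT3B, a de novo DNA methyltransferase, was not detected in SCs and was at least 38.6-fold higher (limma adjusted p = 0.0064, with both SC arrays at the floor). It passed the filter only through eSLC arrays, so the count of 6 is no support for the list. Its relative DNMT3A rose by 3.99 (SE 0.89, adjusted p = 0.014). The histone methyltransferase EHMT2 rose by 1.95 (adjusted p = 0.0018), and MAX, MGA and PCGF6, subunits of a Polycomb complex, by 1.64, 1.55 and 1.38. With SC P5 left out, DNMT3B, DNMT3A, MAX and PCGF6 were not called (adjusted p = 0.080, 0.132, 0.058 and 0.073), with SC P10 left out DNMT3B, DNMT3A and MAX were not (adjusted p = 0.076, 0.104 and 0.055), and DNMT3A was not without P4 (adjusted p = 0.053). E2F6, DNMT1 and SETDB1 were not called. Within eSLCs DNMT3A was at 5219 in I9 and 4268 in N2 against 23960 to 35150 in the other 4 lines, and DNMT3B at 125.5 and 99.99 against 429.7 to 749.7. These were the lines in which MAEL was not detected and ASZ1 and GTSF1 were lowest.

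**Figure D4:**
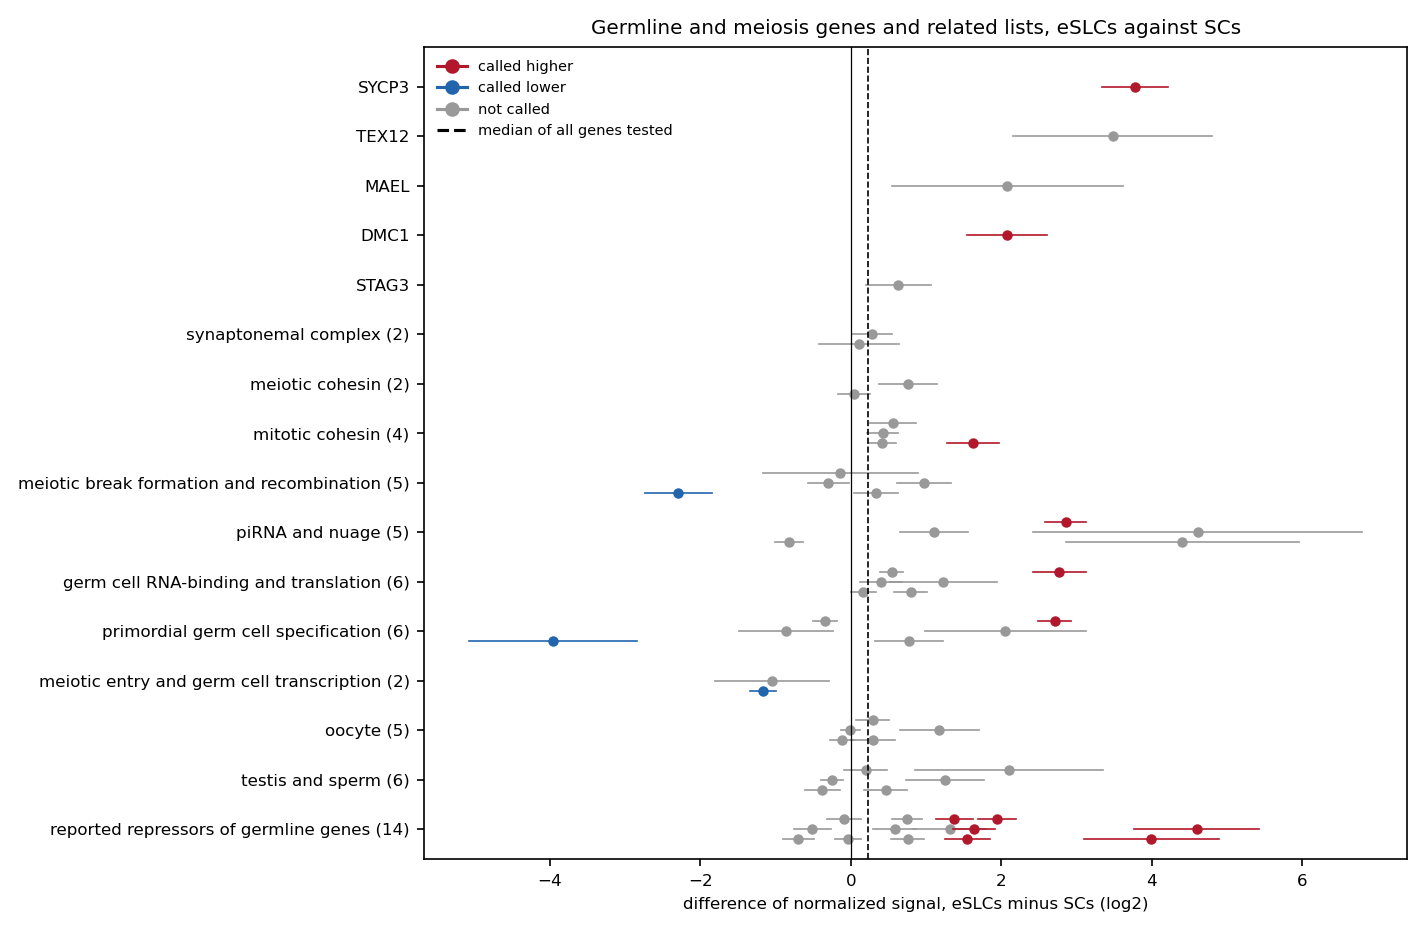
Difference of log2 signal between eSLCs (6 arrays) and SCs (2 arrays) for the 5 germline and meiosis genes that could be tested and for genes of the related lists other than repair, with bars of 1 SE. Red and blue mark genes called higher and lower, the number tested is in parentheses, and the dashed line is the median of all genes tested, 0.23. SYCP3 stands at 3.78, and most genes of the germline lists are grey.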

How the data were processed

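RNA of 8 samples was labelled with Cy3 and hybridized to Agilent bovine 44K arrays. The authors took spot signals with Feature Extraction 11.5.1.1 (per the file headers), normalized in GeneSpring GX, and deposited linear signal intensities per spot and a series matrix of processed intensities. The processed signal did not follow the other columns in 6 files (Spearman's rho 0.161 to 0.217 with the background-subtracted signal), so the background-subtracted signal was used. Outlier spots (1 to 11 per array) were left out and no spot was saturated. The ratio of the 75th percentile to the dimmest detected signal was 75.3 to 136, and the number of arrays limits the precision. Tests used limma 3.58.1 in R 4.3.3 with a mean per condition over all 8 arrays and Benjamini-Hochberg adjustment. A gene was tested if well above background on every array of a condition. On simulated data the fit recovered 70% of 200 genes changed 4-fold for eSLCs against SCs and 52% for NT- against IVP-eSLCs.

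The genes followed and the lists were chosen with earlier results of these data known. Named besides were up to 4 called genes per list with the largest difference, or, in a list with no call, those well above background on every array, and the 3 nearest in pattern to TEX12, MAEL and SYCP3; other genes were named after their values were seen. Some results for genes of the repair list are not reported here. Scanner files without a mean signal made the normexp alternative use the median signal. Array annotation and reference table are of different genome builds, so no coordinates are given, and a promoter motif count was not run. Figures were drawn with matplotlib 3.10.9.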

Additional observations from a re-analysis of the deposited data

Results flagged for a closer look

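TEX12 in N7 was flagged because N7 lay far from the other 5 eSLC lines: the gap to the next line, I2, was 0.64 of the range of the 6 log2 signals. The signal was 1893 in N7 and 49.0 to 183 in the others. The same ratio was 0.598 for SYCP3, which was not flagged. The limit for a flag was 0.625. Of 5 genes examined 1 was flagged. Chance flags a gene taken singly in about 5% of cases, and at least 1 gene more often when 5 are examined. N7 was also the line with a summed hypoblast marker signal of 127200, of which APOA1 gave 112600, while AFP and SOX17 were not highest in N7; the part of any such cells in TEX12 was not tested.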

How the results depend on the processing

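SYCP3 stayed higher and called in eSLCs against SCs under 22 of 23 alternatives, with log2 differences of 2.93 to 4.05, and was not called with the processed signal (adjusted p = 0.0658). DMC1 lost its call under 7 of 22, and TEX12 gained a call under 5 of 23. The processed signal did not follow the background-subtracted signal in 6 files, so calls and signs under it cannot test these results. For eSLCs against SCs, 2 genes were called, 1 with the processed signal, normexp, a doubled floor, the filter on all 8 arrays or SCs as 1 sample, 4 with no test, and 1 to 3 with an array left out; 1 without I9, SC P5 or SC P10 and 3 without N2 or N7. Each probe tested on its own, an alternative chosen after seeing the data, gave 3. The 1 gene called with the processed signal was TEX12, and SYCP3 and DMC1 were not called. With normexp, the doubled floor, the filter on all 8 arrays or SCs as 1 sample it was SYCP3. For NT-eSLCs against SCs the processed signal likewise called TEX12 in place of SYCP3. For IVP-eSLCs against SCs, 2 were called, 0 with the processed signal, 1 with normexp, the doubled floor, either filter, SCs as 1 sample or the methods' t-test after Benjamini-Hochberg, and 1 to 3 with an array left out (1 without I2, I9, SC P5 or SC P10). For NT-eSLCs against SCs, 1 was called, 2 by the series matrix, 0 by the methods' t-test after Benjamini-Hochberg, 3 with no test, and 1 to 2 with an array left out (2 without N2). For PA-eSLCs against SCs, 2 were called, 0 with the processed signal or SCs as 1 sample, 1 with normexp, the doubled floor, either filter, the methods' t-test after Benjamini-Hochberg or the slide as a block, 4 with only the conditions compared or no test, and 0 to 3 with an array left out (0 without SC P5 or SC P10, 1 without I2, I9 or P1). NT- against IVP-eSLCs had 0 calls, and TEX12 as 1 by the series matrix or with no test. In the main signals TEX12 was highest in N7 and lowest in N2 among the eSLC lines. No alternative called any of the 5 between PA- and IVP-eSLCs or by passage. In the wider lists 18 were called, 3 with the processed signal, 7 with SCs as 1 sample, 28 with no test, and 6 to 23 with an array left out (6 without SC P5). Signs turned for STAG3 in IVP-eSLCs against SCs (-0.24 by the series matrix, -0.11 without I9), for DMC1 in NT-eSLCs against SCs (-0.26, processed signal), and in eSLCs against SCs for SYCE1 (-0.075 quantile, -0.38 to -0.099 with I2, P1 or SC P10 left out, -0.12 without P1), SGO2 (-0.18 without SC P5, -0.037 without N7, -0.0022 scaled to the median), TDRKH (-0.97, processed), ASZ1 (-0.95, processed), GTSF1 (-3.94, processed), OOEP (-0.14, series matrix) and NLRP5 (0.018 without SC P5). Signs of single genes were followed only in comparisons with SCs, so turns between embryo origins are not listed. For SYCP3 the order of origins did turn. In the main fit NT-eSLCs exceeded SCs most (4.45) and PA-eSLCs least (3.17). By the series matrix NT-eSLCs exceeded SCs least (2.41) and PA-eSLCs most. Except where the construction gives a change (fewer arrays or genes, another floor), its cause was not tested. The median difference over all genes tested was 0.23, 0.12 under quantile normalization and 0.06 by the series matrix. No paired analysis was possible because the labels call every sample replicate 1, so no numbers pair arrays across groups; the slide as a block is a fit by batch. Signal over background limits DAZL, HORMAD1 and DDX4, for which nothing can be said below the floor of 13.3.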
